A study of Mus musculus with 8 samples.

Results

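The CD40 receptor, the adaptor and ligase proteins that carry its signal and the NF-κB subunits at its end were followed here as 10 genes, Cd40, Traf1, Traf2, Traf3, Traf5, Traf6, Birc3, Nfkb1, Nfkb2 and Relb. They were chosen by gene symbol, and all 10 were found among the 20057 genes of the table. The data are RNA sequencing of cells sorted as tumor endothelium from B16-F10 melanomas, with 4 libraries from tumors treated with an agonistic CD40 monoclonal antibody (mAb) and 4 from isotype control treated tumors. The question was whether the messenger RNAs of this pathway changed in the sorted cells when CD40 was stimulated in the tumor. C57BL/6 male mice, 8 weeks old, received 250000 B16-F10 cells under the skin, and every group carried these tumors. The treated mice were given 2 peritumoral injections of 30 µg of the agonistic CD40 mAb FGK4.5, and the control mice the same dose of the rat IgG2a antibody 2A3, on days 13 and 16. By the labels tumors were taken 1 day after the last injection, while the study's methods also name a later harvest for such sorts and a correction for harvest day, and no harvest day is given per library. About 100000 cells per tumor without CD45 (a leukocyte surface marker) and with CD31 (an endothelial surface marker) were sorted, and 10 ng of RNA entered each library. The libraries are named by mouse, as 5N, 6L, 6R and 10N (agonistic CD40 mAb) and as 5L, 7N, 8N and 9L (isotype control).

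CD40 is a receptor of the TNF receptor family, best known on B cells, dendritic cells and macrophages and also present on endothelium. It has no enzyme activity of its own: when ligand or an agonistic antibody clusters it, TRAF proteins bind its cytoplasmic tail. In the canonical arm the TRAFs activate the IκB kinase complex, which frees NF-κB dimers such as p50 with RelA, while in the noncanonical arm loss of TRAF3 lets the kinase NIK accumulate, p100 is cut to p52, and p52 enters the nucleus with RelB. Several members are themselves known targets of NF-κB, among them Traf1, Birc3, Nfkb1, Nfkb2, Relb and Cd40.

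Depth differed strongly between libraries and was lowest among the controls. The recovered reads on genes ran from 12512772 to 64938728 with agonistic CD40 mAb, while 5L held 2971689 and 7N 3446781. The other controls held 5790652 in 8N and 35583141 in 9L, so 8N was also shallower than every treated library. Values are normalized reads, that is gene counts divided by a size factor of the library, so 1 read was worth 0.118 normalized reads in 5N and 2.44 in 5L. The reads carry no molecular identifiers, and intervals from reads cover counting error only. The libraries 5L and 7N also stood apart from the rest, with median correlations of 0.942 and 0.948 with the other libraries against at least 0.971 for each of the others (Pearson's r of log2 values across genes, which are not independent replicates). Results of the members, and of other genes where stated, are therefore given with and without them. Endothelial markers were abundant, with VE-cadherin (Cdh5) at 2741 and CD31 (Pecam1) at 1592 normalized reads per kb of exon (mean of 8 libraries). Markers of other cells were abundant too, with the melanocyte enzyme Tyrp1 at 6824 and the collagen gene Col1a1 at 7370 on the same scale. A value therefore cannot be ascribed to endothelial cells alone, and in bulk RNA fewer cells of a type and less RNA per cell cannot be told apart.

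No member passed the threshold used by the study, which asks for group means at least 1.5-fold apart and for a p, before adjustment, of at most 0.05 (here from limma, a linear model fitted to all genes together). Among the 12969 genes tested, 166 (1.28%) were higher and 31 (0.239%) lower at this threshold, against 0 and 0 of the 10 members. At an unadjusted limma p of at most 0.05 without the ratio, 2.01% of all genes and 0 members were counted, and the lowest p of a member was 0.138, for Relb. The adjusted p was 1.00 for each member, and 0.0154% of all genes, 2 in number, had an adjusted limma p under 0.05. The groups did not overlap in 1.57% of all genes and overlapped in all 10 members. Fits of the recovered reads with edgeR, DESeq2 and voom also placed 0 members past the threshold and 0 at an unadjusted p of at most 0.05. All 10 members had a mean above 10 normalized reads in both groups, so none entered the test through 1 group only. By sign alone, 8 members were higher and 2 lower with agonistic CD40 mAb, and the median log2 fold change was 0.17 against 0.00457 over all genes tested. That balance rested on 5L and 7N: without them 5 members were higher and 5 lower, and the median was 0.02.

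**Figure D1:**
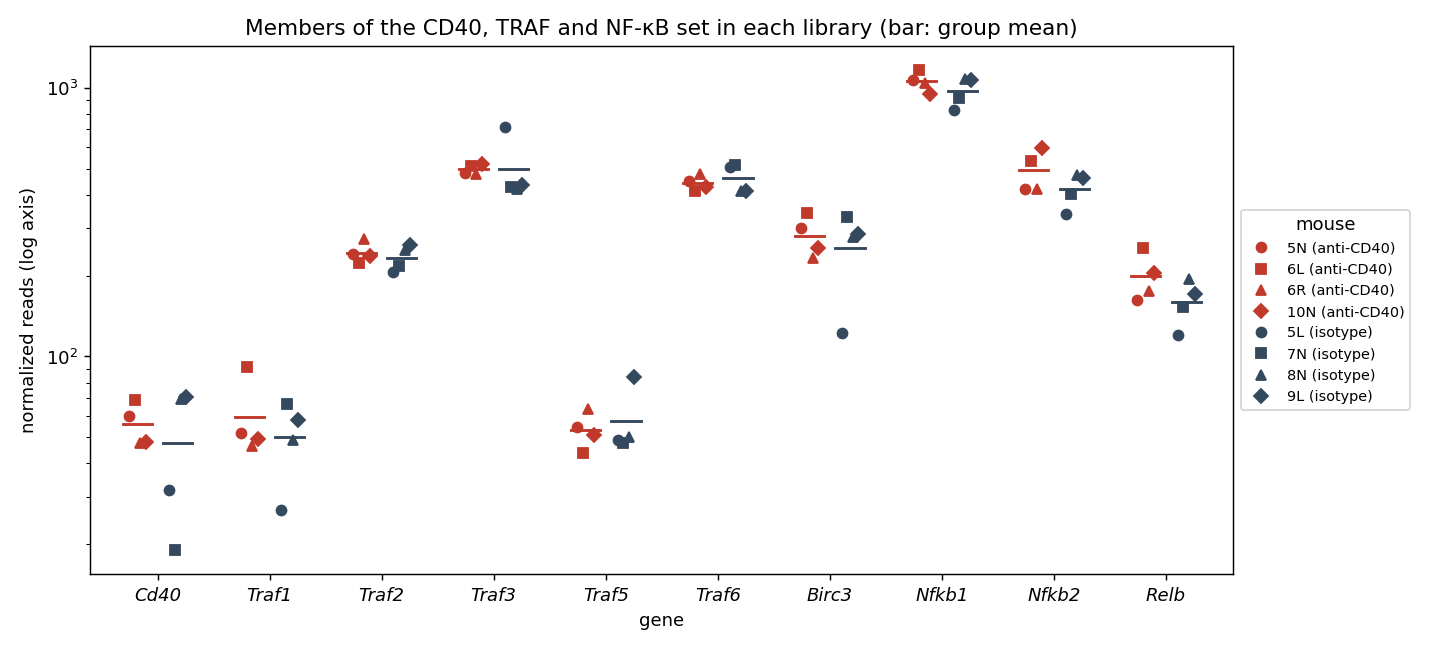
Normalized reads (log axis) of the 10 members in each of the 8 libraries, with 1 symbol per mouse, red for agonistic CD40 mAb, dark blue for isotype control, and a bar at each group mean. The groups overlap in every member, and the isotype control library 5L is the lowest point of Traf1, Traf2, Birc3, Nfkb1, Nfkb2 and Relb.

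The receptor gene Cd40 (chromosome 2, 165055627 to 165072948, plus strand, mm10) was detected in all 8 libraries at a low level. With agonistic CD40 mAb it measured 60.2 normalized reads in 5N, 68.6 in 6L, 47.5 in 6R and 48.2 in 10N. With isotype control it measured 31.8 in 5L, 19.0 in 7N, 69.4 in 8N and 70.4 in 9L. The controls thus held both the lowest and the highest values, and the treated libraries lay between them. The means were 56.1 ± 10.2 and 47.7 ± 26.2 (SD, n = 4 each), a ratio of 1.18. The log2 fold change was 0.41 (SE 0.40, 95% interval -0.48 to 1.29), and exact permutation of the log2 values (two-sided) gave p = 0.457, where 0.0286 is the smallest p that 4 against 4 libraries allow. The interval spans ratios from 0.719 to 2.44, so the data do not settle whether Cd40 mRNA rose or fell.

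The low values of Cd40 came from few reads. In 7N the gene had 8 reads and in 5L 13, against 51 in 8N, 325 in 9L and 79 to 511 in the treated libraries. The exact Poisson 95% interval reached from 8.22 to 37.5 normalized reads in 7N and from 63.0 to 78.5 in 9L, so these controls differed by more than counting error. Without 7N the log2 fold change of Cd40 was 0.04, without 9L it was 0.65, and without both 5L and 7N it was -0.33. The direction of Cd40 was thus set by the choice of control libraries. The summed level of 10 endothelial markers was also lowest in these libraries, at 34778 normalized reads in 5L and 37344 in 7N against 39820 to 58174 elsewhere, and its part in the result was not tested.

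**Figure D2:**
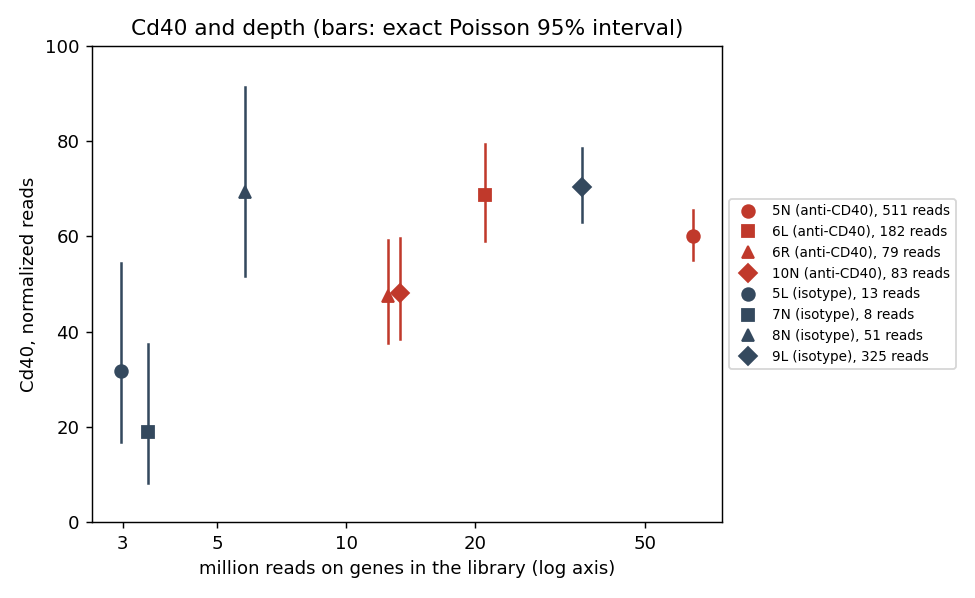
Cd40 in normalized reads against the depth of each library (reads on genes, log axis), with the exact Poisson 95% interval as a bar and red for agonistic CD40 mAb, dark blue for isotype control. The shallow control libraries 5L and 7N, with 13 and 8 Cd40 reads, give the lowest values, while the control 9L, with 325 reads, gives the highest.

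Markers of the leukocytes on which CD40 is best known were read in the same libraries, since the sort was meant to remove those cells. Of 8 B cell markers, Pax5 had no read in any library, Ms4a1 (CD20) had reads in 1 library, and the summed level was 3.77 to 10.2 normalized reads with agonistic CD40 mAb and 0 to 10.4 with isotype control. Of 8 dendritic cell markers, Cd209a had no read, Flt3 was at 0 in 6 libraries, and the summed level of 276 to 406 against 215 to 350 came mostly from Zbtb46 and Clec9a. Zbtb46 is also known in endothelium, and Clec9a shares exons with the neighbouring gene Clec1b. The 10 macrophage markers were present at summed levels of 325 to 547 with agonistic CD40 mAb and 208 to 491 with isotype control. The 10 general leukocyte markers summed to 1916 to 2208 with agonistic CD40 mAb and 1334 to 2149 with isotype control. Of these, 5 were tested and 0 passed the threshold, with 4 higher by sign and 1, Laptm5, lower. The common leukocyte antigen gene Ptprc, too low for the test, lay between 1.51 and 21.1 normalized reads with agonistic CD40 mAb (108 reads). With isotype control Ptprc lay between 0 and 4.98 (26 reads). The 10 T and NK cell markers summed to 3.39 to 11.4 normalized reads with agonistic CD40 mAb, from 83 reads, and to 0 to 3.25 with isotype control, from 18 reads. The groups did not overlap, but the nearest libraries, 6L at 3.39 and 9L at 3.25, lay less than 1 read apart. A read was worth 0.377 normalized reads in 6L and 0.217 in 9L. Prf1 had 42 reads and Cd8a 14 in the treated libraries and none in the controls, which hold fewer reads in all. Cd4 went the other way, with 8 reads in the treated libraries and 17, nearly all of the control reads of this list, in the controls. Cd3d had no read in any library. Mrc1, named after its values were seen, was the macrophage marker past the threshold, at 39.0 ± 2.94 normalized reads with agonistic CD40 mAb against 22.4 ± 7.46 in the controls (SD, n = 4 each, log2 fold change 0.83, SE 0.30), with no overlap between groups. Its log2 fold change was 1.03 without 5L and 7N and 0.63 to 1.00 with 1 library left out, and it missed the threshold without 8N. The median of the 10 macrophage markers was 0.55, with 7 higher by sign. Without 5L and 7N it was 0.57, with 9 higher by sign. Per kb of exon, Cd40 averaged 15.2 normalized reads, above Ptprc at 0.342 and the B cell gene Cd79a at 1.83. Other leukocyte and macrophage markers lay above Cd40 on this scale, with Lcp1 at 139, Lyz2 at 119, Lsp1 at 92.2, Cd68 at 56.9, C1qb at 32.5, C1qa at 29.2 and Coro1a at 16.3, as did Clec9a at 26.7 and Zbtb46 at 25.2. The share of the Cd40 reads that came from endothelial cells, leukocytes or tumor cells was not tested.

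Per kb of exon the NF-κB precursor genes were the most abundant members and Cd40, Traf5 and Traf1 the least. Nfkb2 stood at 99.4 normalized reads per kb (mean of 8 libraries) and Nfkb1 at 83.9, followed by Traf3 at 67.8, Traf6 at 57.3, Birc3 at 53.5, Traf2 at 46.6 and Relb at 46.1. Cd40 at 15.2, Traf5 at 12.2 and Traf1 at 6.23 came last. Relb and Cd40 did not overlap in mean ± SD in either group, and neither did Traf5 and Traf1, while Nfkb1 and Traf3, Traf3 and Traf6, and Cd40 and Traf5 overlapped in the controls only. Nfkb2 and Nfkb1 overlapped in mean ± SD in both groups, as did Traf6 and Birc3, Birc3 and Traf2, and Traf2 and Relb. With the length of the longest coding transcript, a choice made after the data were seen, Nfkb1 came first at 246 and Nfkb2 next at 119, and the last 3 genes were the same, Traf5 at 28.3, Cd40 at 17.4 and Traf1 at 16.0.

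**Figure D3:**
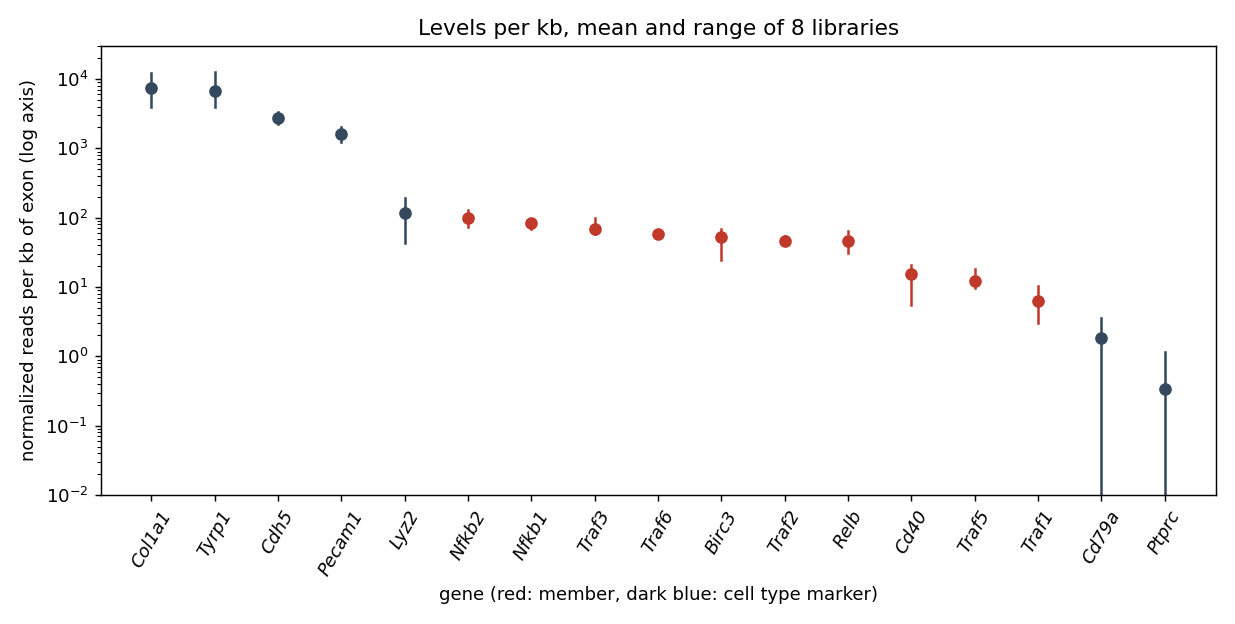
Normalized reads per kb of exon (log axis) of the 10 members (red) and of markers of other cells and of endothelium (dark blue), as the mean of 8 libraries with a line from the lowest to the highest library. Members lie between 6.23 and 99.4, below Cdh5, Pecam1 and the macrophage marker Lyz2 at 119, and above Cd79a and Ptprc, whose lines reach the lower edge because a library was at 0.

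None of the 5 TRAF adaptor genes differed between the groups by more than the spread between libraries. Traf1, which lacks the RING domain of the other TRAFs, is strongly induced by NF-κB in many cells and lies on chromosome 2 (34941750 to 34961772, minus strand), ranged from 46.3 to 91.3 normalized reads with agonistic CD40 mAb and from 26.9 to 66.6 with isotype control. The log2 fold change of Traf1 was 0.26 (SE 0.33, 95% interval -0.46 to 0.99), and the highest value, 91.3 in 6L, stood apart from the other 3 treated libraries. Without 5L the log2 fold change of Traf1 was -0.0027.

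Traf2 (chromosome 2, 25517982 to 25546940, minus strand) encodes the adaptor that brings the cIAP ubiquitin ligases to CD40. It lay between 223 and 273 normalized reads with agonistic CD40 mAb and between 205 and 259 with isotype control, with a log2 fold change of 0.07 (SE 0.14, 95% interval -0.24 to 0.37). This interval lies inside a 1.5-fold change either way, which is 0.585 on the log2 scale.

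Traf3 (chromosome 12, 111166370 to 111267153, plus strand) encodes the adaptor that holds NIK at a low level in resting cells. The 4 treated libraries lay close together, between 476 and 519 normalized reads, and 3 controls between 421 and 433, while the control 5L reached 716. The means were 497 ± 20.9 and 499 ± 145 (SD, n = 4 each), with a log2 fold change of 0.03 (SE 0.17, 95% interval -0.35 to 0.41) and an exact permutation p of 1. Every treated library was thus above 3 of the 4 controls and below the other. Without 5L the log2 fold change of Traf3 was 0.22, below the ratio of 1.5.

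Traf5 (chromosome 1, 191997205 to 192092559, minus strand) is a close relative of Traf3 that also binds the CD40 tail. It ranged from 43.8 to 63.8 normalized reads with agonistic CD40 mAb and from 47.6 to 84.1 with isotype control (log2 fold change -0.08, SE 0.25, 95% interval -0.64 to 0.47). Its highest value came from the deeply sequenced control 9L, and without 9L the change was 0.11. Exons of Traf5 overlap the antisense gene Gm26879 over 205 bases, and the library kit does not mark strand, so reads there cannot be told apart.

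Traf6 (chromosome 2, 101678429 to 101701669, plus strand) binds a site of CD40 nearer the membrane and also serves the IL-1 and Toll-like receptors. Values of 411 to 478 normalized reads with agonistic CD40 mAb met 412 to 516 with isotype control, and the log2 fold change was -0.06 (SE 0.13, 95% interval -0.33 to 0.22). Its interval, like those of Traf2, Traf3 and Nfkb1, lay inside a 1.5-fold change either way, which held for 4 members and for 54.0% of all genes tested.

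Birc3 (chromosome 9, 7848699 to 7873186, minus strand) encodes cIAP2, a ubiquitin ligase of the TRAF2 complex and a known NF-κB target. It ranged from 232 to 341 normalized reads with agonistic CD40 mAb. The controls 7N, 8N and 9L lay between 279 and 331, and 5L at 122. The log2 fold change was 0.22 (SE 0.28, 95% interval -0.40 to 0.85), and without 5L it was -0.09, so the higher mean of the treated libraries rested on this control. Of the 50-base windows of its transcripts, 7.56% also occur in other genes, which limits how exactly its reads can be assigned.

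The means of the NF-κB subunit genes Nfkb1, Nfkb2 and Relb were higher with agonistic CD40 mAb, but the groups overlapped in each gene. Nfkb1 (chromosome 3, 135584655 to 135691547, minus strand) encodes p105, the precursor of p50. It measured 1068 normalized reads in 5N, 1163 in 6L, 1041 in 6R and 943 in 10N, against 824 in 5L, 914 in 7N, 1077 in 8N and 1065 in 9L. The groups overlapped, with 8N and 9L level with the treated libraries. The means were 1054 ± 90.4 and 970 ± 122 (SD, n = 4 each), and the log2 fold change was 0.12 (SE 0.12, 95% interval -0.15 to 0.40, exact permutation p = 0.314).

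Nfkb2 (chromosome 19, 46304320 to 46312385, plus strand) encodes p100, the precursor of p52. It measured 418 normalized reads in 5N, 534 in 6L, 421 in 6R and 598 in 10N, against 340 in 5L, 402 in 7N, 472 in 8N and 461 in 9L. The treated libraries 6L and 10N lay above all controls, and 5N and 6R lay below 8N and 9L. The means were 493 ± 88.3 and 419 ± 61.0 (SD, n = 4 each), a ratio of 1.18, with a log2 fold change of 0.23 (SE 0.16, 95% interval -0.13 to 0.59, exact permutation p = 0.229). Exons of Nfkb2 overlap those of Psd and AC114539.1 on the opposite strand over 830 bases, where reads cannot be assigned to a strand.

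Relb (chromosome 7, 19606217 to 19629438, minus strand) encodes RelB, the partner of p52, and had the lowest p of the members. It measured 162 normalized reads in 5N, 253 in 6L, 176 in 6R and 204 in 10N, against 120 in 5L, 152 in 7N, 195 in 8N and 171 in 9L. Only 6L and 10N exceeded all controls. The means were 199 ± 40.4 and 159 ± 31.6 (SD, n = 4 each), a ratio of 1.25, with a log2 fold change of 0.32 (SE 0.20, 95% interval -0.12 to 0.76, exact permutation p = 0.200). A 1.69-fold increase is the upper bound of the interval, so a change as large as the threshold cannot be told from none at this spread.

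The 2 shallowest controls were low for several members together. Cd40, Traf2, Nfkb1, Nfkb2 and Relb, 5 of the 10 members, had their 2 lowest values in 5L and 7N, as did 6.79% of all genes tested, a pattern noticed after the values were seen. Without these libraries, a fit of 4 against 2, the log2 fold changes were -0.03 for Nfkb1, 0.06 for Nfkb2 and 0.10 for Relb. For the other members they were 0.10 for Traf1, -0.07 for Traf2, 0.22 for Traf3, -0.30 for Traf5, 0.10 for Traf6 and -0.02 for Birc3. The summed level of 8 melanoma markers was highest in 5L, at 116889 normalized reads against 46199 to 73311 in the other libraries, and its part in these values was not tested.

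**Figure D4:**
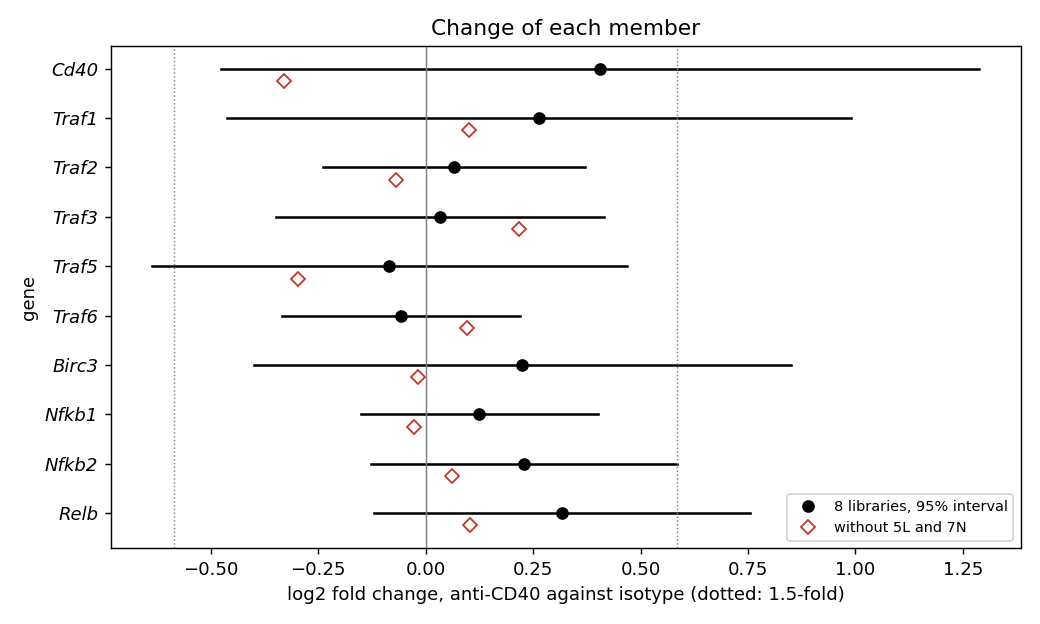
Log2 fold change of each member, agonistic CD40 mAb against isotype control, with all 8 libraries (filled points, 95% interval from limma as a line) and without 5L and 7N (open diamonds). Every interval includes 0, the dotted lines mark a 1.5-fold change, and the diamond of Cd40 lies at -0.33 against 0.41 with all libraries.

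In a ratio within a library the size factor cancels, apart from the pseudocount of 1 added to both values, so each of 4 members known as NF-κB targets was also set against a related gene. The log2 ratio of Relb to Rela, the gene of the canonical subunit RelA, lay between -1.87 and -1.59 with agonistic CD40 mAb and between -2.25 and -1.77 with isotype control. The groups overlapped, and the difference of 0.26 had an exact permutation p of 0.114 (0.457 after adjustment over the 4 ratios). Without 7N, the control that overlapped the treated range, it was 0.35 with an exact permutation p of 0.0286, the smallest that 4 against 3 libraries allow. Leaving out the only overlapping control fixes that p in advance, so it adds no evidence. Without any other single library the exact permutation p stayed above 0.05. The difference was 0.10 for Nfkb2 to Nfkb1, 0.20 for Traf1 to Traf2 and -0.08 for Birc3 to Birc2, with exact permutation p values of 0.771, 0.600 and 0.371. Without 5L and 7N the differences were 0.27 for Relb to Rela, 0.09 for Nfkb2 to Nfkb1, 0.17 for Traf1 to Traf2 and -0.21 for Birc3 to Birc2. The exact permutation p of the last was 0.0667, the smallest that 4 against 2 libraries allow.

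The promoters of the members were read for NF-κB motifs, because genes of this set are known to be controlled by NF-κB. RefSeq (GRCm38.p6) gave the 250 bases before the start for 7 members at 9 starts, with none for Cd40, Nfkb1 and Relb. The κB consensus, searched on both strands, occurred before Traf3 and before each of the 3 starts of Nfkb2, and in 3.90% of 32851 promoters overall. The interferon gamma element GAS (TTCNNNGAA) occurred before Nfkb2 and in 7.02% of promoters. The core of the interferon element ISRE occurred before 0 of the 7 members and in 2.98% of promoters. The 5 windows shown were chosen after the values were seen, since they show the letters behind these matches, with the matched bases in capitals, on the strand of the gene. The first match of the first Nfkb2 start overlaps a further κB match shifted by 1 base, the Traf3 window ends at the base before the gene, and all Nfkb2 windows lie inside the span that GENCODE gives to Nfkb2.
Traf3, κB, chr12:111166340-111166369: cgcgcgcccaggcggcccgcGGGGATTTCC
Nfkb2, first start, κB at -39, chr19:46304688-46304717: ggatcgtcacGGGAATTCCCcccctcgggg
Nfkb2, first start, κB at -11, chr19:46304707-46304736: ccccctcggggggccgaaaGGGGCTTTCCc
Nfkb2, first start, GAS at -148, chr19:46304579-46304608: tgggcgagccTTCCCCGAAaggggcgcgcc
Nfkb2, start 3, κB at -225, chr19:46305695-46305724: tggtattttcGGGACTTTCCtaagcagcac
These matches are letters in a window, and the data hold no measure of factor binding there. Neither gene with a κB match, Traf3 at a log2 fold change of 0.03 and Nfkb2 at 0.23, passed the threshold.

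Among the ligand, kinases and further adaptors between receptor and NF-κB, 23 of 24 genes were tested and 0 passed the threshold, with 11 higher and 12 lower by sign and a median log2 fold change of -0.02. The gene of the CD40 ligand, Cd40lg, had 2 reads in the treated libraries and 0 in the controls and was not tested. Map3k14, the gene of NIK and named after its values were seen, lay between 78.8 and 139 normalized reads with agonistic CD40 mAb and between 47.6 and 97.1 with isotype control, a log2 fold change of 0.40 (SE 0.27). Ikbke, the gene of the kinase IKKε, changed by 0.35 (SE 0.23), and Rnf31, the catalytic subunit of the linear ubiquitin ligase, by 0.27 (SE 0.18), and neither passed. Rnf31 was at 0.16 without 5L and 0.09 without 5L and 7N, and Ikbke at 0.21 without 8N and 0.47 without 5L and 7N. With library quality weights Ikbke was at 0.57 (limma adjusted p = 0.784). It stayed under the threshold by its ratio of 1.26, which was taken from unweighted group means. The most abundant genes of the list were Xiap, an inhibitor of caspases, at a log2 fold change of 0.03 (SE 0.18), and Tab2, an adaptor of the kinase TAK1, at -0.11 (SE 0.12).

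Of the other subunits, IκB proteins and deubiquitinases, 13 of 14 were tested and 0 passed, with 12 higher and 1, Rel, lower by sign. These genes include the feedback inhibitors that NF-κB itself induces. Nfkbia, the gene of IκBα, measured 1130 ± 208 against 986 ± 387 normalized reads (SD, n = 4 each), a ratio of 1.15. Its log2 fold change, fitted to log2 values, was 0.29 (SE 0.30), and it was -0.04 without 5L and 0.03 without 5L and 7N. Nfkbie, the gene of IκBε, differed by 0.45 (SE 0.27), Nfkbiz, the gene of IκBζ, by 0.40 (SE 0.30), and Tnip1, which encodes a partner of A20, by 0.23 (SE 0.14). Nfkbie passed the threshold without 8N, at 0.63, and was at 0.06 without 5L and 7N. Nfkbiz was at 0.045 without 5L, 0.63 without 7N and 0.21 without both. Tnip1 was at 0.14 without 7N and 0.03 without 5L and 7N. The median of this list was 0.23 with all libraries and 0.05 without 5L and 7N, where 9 were higher by sign.

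Among genes that NF-κB is known to induce in endothelium, 22 of 28 were tested and 4 were higher at the threshold, against 1.28% of all genes. This list was chosen with earlier results known, so that count is no independent evidence. The list's median log2 fold change was 0.27 and 18 of its genes were higher by sign. The median was 0.10 without 5L, 0.59 without 7N and 0.30 without both. Irf1, a transcription factor gene that interferon gamma also induces, measured 1034 ± 232 normalized reads with agonistic CD40 mAb against 521 ± 178 in the controls (SD, n = 4 each), and its log2 fold change was 1.03 (SE 0.25, limma adjusted p = 0.460). Ccl5, a T-cell attracting chemokine, lay between 10.4 and 51.7 normalized reads in the treated libraries and at 0, 0, 4.08 and 3.03 in the controls, from 17 reads, with a log2 fold change of 3.65 (SE 0.73, limma adjusted p = 0.283). In both genes every treated library lay above every control, and both passed without 5L and 7N as well, at 0.62 for Irf1 and 2.56 for Ccl5. Ccl5 entered the test through the treated group only, with a control mean of 1.78. With 2 controls at 0 the fold change of Ccl5 depends on the pseudocount and ran from 1.66 (pseudocount 10) to 5.41 (pseudocount 0.1). The chemokine gene Cxcl5, named after its values were seen, did not pass with all libraries, at 0.79, and passed without 5L and 7N, at 1.20.

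The adhesion molecule genes Icam1 and Vcam1, which bind leukocyte integrins, were the other targets past the threshold. Icam1 measured 582 ± 52.8 and 377 ± 132 normalized reads (log2 fold change 0.69, SE 0.22), and Vcam1 702 ± 39.8 and 431 ± 179 (0.83, SE 0.31; SD, n = 4 each), with no overlap between groups in either gene. Without 5L and 7N neither passed the ratio of 1.5, at log2 fold changes of 0.24 for Icam1 and 0.55 for Vcam1, and without 5L alone they were 0.53 and 0.46. Icam1 also missed the threshold without 6L or 7N, and in voom at 0.51. The inflammatory enzyme gene Ptgs2, at a log2 fold change of 0.16 (SE 0.49), and the protease gene Plau, at -0.04 (SE 0.14), the most abundant of the list, did not pass.

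Of 9 genes known as targets of the RelB/p52 arm, 6 were tested and 2 were higher at the threshold, against 1.28% of all genes. By sign 5 were higher, against 51.3%. The list was chosen with earlier results known, and both genes past the threshold entered the test through the treated group only. Their count is therefore no independent evidence. Ccl19, a chemokine of lymphoid tissue, measured 23.7 ± 8.48 normalized reads with agonistic CD40 mAb against 3.16 ± 1.52 in the controls (SD, n = 4 each), from 17 reads in all controls, a log2 fold change of 2.55 (SE 0.47, limma adjusted p = 0.245). Tnfsf13b, the gene of the B cell factor BAFF, measured 18.5 ± 3.15 and 5.51 ± 4.12, a log2 fold change of 2.01 (SE 0.70). The groups did not overlap in either gene, and both passed the threshold without 5L and 7N as well, at 2.32 and 1.00. With a pseudocount of 10 they were at 1.32 and 0.92 and with 0.1 Tnfsf13b was at 2.90, and without 5L alone at 1.25. Cxcl12, the most abundant of the list, changed by 0.48 (SE 0.18) with a ratio of 1.41, under the threshold, and Ccl21a by 0.86 (SE 0.54). Cxcl12 passed without 6L, at 0.58, and Ccl21a without 8N, at 1.28, while Ccl21a was at -0.02 without 5L and 7N. The list's median of 0.82 was 0.45 without 5L and 7N and likewise without 5L alone. Ccl21a is also a marker of lymphatic endothelium. All 6 lymphatic markers were higher by sign and 0 passed, with a median log2 fold change of 0.58 (0.06 without 5L and 7N) and summed levels of 3161 to 5412 normalized reads with agonistic CD40 mAb against 2102 to 4007 in the controls. The part of lymphatic endothelium, of macrophages, whose marker Mrc1 was higher, and of T and NK cells, whose markers rest on the few reads given above, in the values of target genes such as Ccl5 was not tested.

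The other TNF receptors and the IL-1 and Toll-like receptors, which share the TRAFs with CD40, had 19 of 26 genes tested and 2 higher at the threshold, against 1.28% of all genes. Tlr2, the receptor of bacterial lipoproteins, measured 65.1 ± 7.51 and 43.0 ± 6.29 normalized reads (SD, n = 4 each; log2 fold change 0.59, SE 0.22), and Tnfrsf8, the gene of CD30, 17.3 ± 6.03 and 8.19 ± 6.34 (1.14, SE 0.50). Tnfrsf8 entered the test through the treated group only. Without 5L and 7N neither gene passed, at 0.44 for Tlr2 and 0.68 for Tnfrsf8. Tnfrsf8 also missed the threshold when any single library other than 5N and 8N was left out, and with a pseudocount of 10, with library quality weights, in edgeR and in DESeq2. Tlr2 missed it without 5N, 6L or 5L, with quantile scaling, in edgeR, in DESeq2 and in voom, at 0.53 to 0.57 in these last 4 fits. The most abundant receptors were the TNF receptor gene Tnfrsf1a, at a log2 fold change of 0.09 (SE 0.15), and Il1r1, at 0.11 (SE 0.30), and neither passed.

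Genes that CD40 is known to induce in antigen-presenting cells were largely below the level needed for a test, with 5 of 16 tested. Il12b, Ccl17 and Cd70 had no read in any library. The costimulatory gene Cd80 was lower at the threshold, at 15.8 ± 8.88 normalized reads with agonistic CD40 mAb against 29.7 ± 10.5 with isotype control (SD, n = 4 each, log2 fold change -0.94, SE 0.41), and the groups overlapped. Cd80 missed the threshold when any single library other than 5N and 7N was left out, with a log2 fold change of -0.73 without 9L. It also missed the threshold with all genes with a read, in edgeR and in DESeq2, at -0.94 to -0.93, and passed without 5L and 7N, at -1.25. The death receptor gene Fas, at 0.46 (SE 0.34), and the adaptor gene Ticam1, at 0.17 (SE 0.18), did not pass. Fas was at 0.20 without 5N and 0.23 without 5L and 7N, and Ticam1 at 0.05 without 7N and -0.06 without 5L and 7N.

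Genes of the response to interferon gamma, a cytokine of activated T and NK cells, are given for comparison. All 26 were higher at the threshold, with a median log2 fold change of 1.45, and in 22 of them the groups did not overlap. This list was known from earlier results of these data, so its count is no independent evidence. The list is also no measure of what these libraries could detect. Its most abundant genes were B2m at 1.11 (SE 0.31), H2-D1 at 1.08 (SE 0.25) and H2-K1 at 1.44 (SE 0.29), all of MHC class I. Without 5L and 7N, 21 of the 26 passed and the median was 0.94. The difference between this list and the members was not tested.

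**Figure D5:**
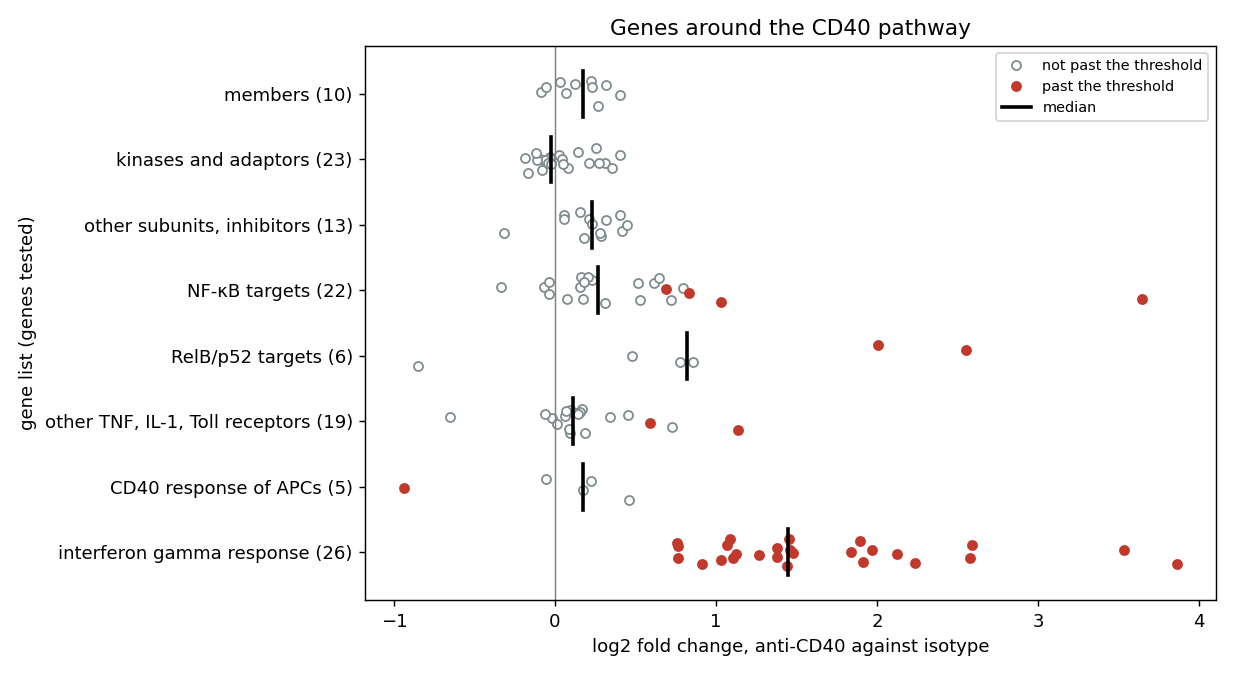
Log2 fold change, agonistic CD40 mAb against isotype control, of each tested gene of 8 lists, with filled red points for genes past the threshold (ratio of at least 1.5, limma p of at most 0.05) and a black bar at each list's median. No point is filled among the members, the kinases and adaptors or the other subunits and inhibitors, 4 are among the NF-κB targets, and all 26 of the interferon gamma list are.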

How the data were processed

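RNA of sorted tumor endothelial cells was sequenced with TruSeq RNA v2 reagents, a kit that does not mark strand, with 1 library per tumor. Per the study's methods and the submitters' processing notes, the authors aligned reads to mm10 with TopHat2 2.0.11 (the notes also name CASAVA 1.8 and Bowtie2 2.2.1), assigned them to genes in Partek 6.6 and divided gene counts by DESeq2 size factors in R 3.3.1. The deposited values are therefore a signal, in normalized reads per gene. The methods also name a correction for harvest day, a floor at 1 and a trim of genes with low means, none of which is visible, since 99.9% of the values lie within 0.1 read of a whole multiple of 1 read and zeros are kept. Depth is given in the report, per library for the controls and as a range for the treated libraries.

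The values were tested as log2(value + 1) with limma 3.58.1 (R 4.3.3, variance trend, treatment as the only term, where the study used a two-way ANOVA that also held macrophage libraries, not used here) over the 12969 genes whose larger group mean exceeded 10, with Benjamini-Hochberg adjustment. Fold changes on this scale understate changes of low genes. Single genes and ratios were compared by two-sided exact permutation over 70 assignments. Positions and lengths come from GENCODE M21, and promoters from RefSeq GRCm38.p6.

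The members and gene lists were chosen with earlier results of these data known. Named are all members, with every library's value for Cd40 and the NF-κB subunits, and of each other list the genes past the threshold, the 2 of lowest p and the 2 of largest mean (for the interferon gamma list only the 3 of largest mean). The alternatives were pseudocounts of 0.1 and 10, all genes with a read, a larger group mean above 50, quantile and TMM scaling, limma fits that dropped the trend, moderated robustly or weighted libraries by quality, edgeR 4.0.16, DESeq2 1.42.0 and voom on recovered reads, and each library left out. Leaving out 5L and 7N together was chosen after seeing the data. The scripts were tested on simulated data.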

Additional observations from a re-analysis of the deposited data

Results flagged for a closer look

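In 4 of 28 sets of 4 values checked (each member in each group, and each of the 4 ratios in each group), 1 library lay far from the other 3 by Dixon's criterion, under which chance marks about 1 set in 20. Traf1 was highest in the treated library 6L, at 91.3 normalized reads, with a gap to the next library of 0.875 of the range. Traf3 was highest in the control 5L, at 716 normalized reads, with a gap of 0.957 of the range, and 5L is the library with the fewest reads and the highest summed melanoma markers. Traf5 was highest in the control 9L, at 84.1 normalized reads (gap 0.924 of the range), which is the most deeply sequenced control. The log2 ratio of Birc3 to Birc2 was lowest in the treated library 6R, at -0.50 (gap 0.861 of the range).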

How the results depend on the processing

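No member passed the threshold under any of 20 other settings or without 5L and 7N, and the lowest unadjusted limma p of a member in any of these fits was 0.0762 (Traf3 without 5L). Directions were less stable. With library quality weights the log2 fold change turned for Cd40 (-0.21), Traf2 (-0.0013), Traf6 (0.074), Birc3 (-0.021), Nfkb1 (-0.013), Tab2 (0.0037) and Tnfrsf1a (-0.060). Without 5L and 7N it turned for Cd40 (-0.33), Traf2 (-0.068), Traf6 (0.097), Birc3 (-0.018), Nfkb1 (-0.027), Tab2 (0.022), Ccl21a (-0.018), Tnfrsf1a (-0.078) and Ticam1 (-0.059). On recovered reads it turned for Traf3 (-0.0078 in edgeR, -0.0069 in DESeq2), Ptgs2 (-0.16 in both) and Traf2 (-0.016 in voom). Leaving out 1 library at a time turned some directions, with ranges of -0.0027 to 0.42 for Traf1, -0.036 to 0.22 for Traf3, -0.17 to 0.11 for Traf5, -0.094 to 0.38 for Birc3, -0.055 to 0.17 for Xiap, -0.044 to 0.45 for Nfkbia, -0.39 to 0.62 for Ptgs2, -0.17 to 0.052 for Plau, -0.036 to 0.16 for Tnfrsf1a, -0.17 to 0.40 for Il1r1, -0.046 to 0.19 for the ratio Nfkb2 to Nfkb1 and -0.061 to 0.39 for Traf1 to Traf2. Relb (0.19 to 0.42) and Nfkb2 (0.13 to 0.30) kept their direction in these fits, as did Cd40 (0.04 to 0.65). Over all genes, 166 were higher at the threshold (331 with all genes with a read) and 31 lower, against 93 with all genes, 13 above a mean of 50, 57 without trend, 70 with quality weights, 47 in edgeR, 57 in DESeq2, 91 in voom, 56 without 5L and 7N and 27 to 123 with 1 library left out, the highest without 5L. Genes with an adjusted p under 0.05 numbered 2, and between 1 (among others in voom) and 64 (DESeq2) elsewhere. The cause of these shifts was not tested. No paired analysis was possible because the labels number no replicates and give no harvest day, and the number 5 in the mouse names 5N and 5L is the only one the groups share and is not said to tie animals together. Depth limits the precision of Cd40 in 5L and 7N, with 13 and 8 reads.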
